A study of Mus musculus with 15 samples.

Results

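The expression of 10 genes was examined in 4T1 cells: 9 genes of antigen presentation on MHC class I and Cd274, the gene of the checkpoint ligand PD-L1. They were chosen by symbol from a count table of 40402 genes, and all 10 were listed in it. The members were H2-K1 and H2-D1 (class I heavy chains), B2m (light chain), Tap1, Tap2 and Tapbp (peptide transport and loading), Psmb8 and Psmb9 (immunoproteasome), Nlrc5 (transactivator of class I genes) and Cd274. 4T1 is an established mouse mammary carcinoma line from a BALB/c animal and is used as a model of triple-negative breast cancer. The labels give its genotype as WT. The 5 conditions were untreated cells and cells treated after seeding with blackberry extract (BLA), blueberry extract (BLU), gold nanoparticles made with blackberry extract (BLA-A) or gold nanoparticles made with blueberry extract (BLU-A). The samples hold no group treated with the extract solvent or with gold alone, so the berry, the solvent and the gold of a treatment cannot be told apart from each other against untreated cells.

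MHC class I carries peptides from inside the cell to its surface, where CD8 T cells read them. The proteasome cuts the peptides, the transporter of Tap1 and Tap2 brings them into the endoplasmic reticulum, and tapasin, the product of Tapbp, holds the empty heavy chain and light chain until a peptide fits. Interferons raise most of these genes and also Cd274, whose product PD-L1 dampens T cells by binding PD-1, and tumours are known to lower class I or raise PD-L1 to escape them.

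The stretch before each start site was searched for fixed letter patterns of interferon, NF-kB and CCAAT elements. Upstream sequences from RefSeq (build GRCm38.p6, C57BL/6J reference) were matched by symbol for 8 of the 10 genes, the other two being Tap2 and Nlrc5. The 250 bases before the start are shown for the genes whose levels stood furthest apart in BLA-A, as the strand of the gene, with motif letters in capitals. The motifs searched on both strands were GAANNGAAA (core of the interferon response element), TTCNNNGAA (gamma-activated site), GGGATTCCC (kappa B) and CCAAT. H2-K1 lies at chr17:34000348-34000597 on the minus strand (the first of 2 starts listed), H2-D1 at chr17:35262844-35263093, B2m at chr2:122147437-122147686, Tapbp at chr17:33919228-33919477 and Psmb8 at chr17:34197945-34198194, all 4 on the plus strand.
H2-K1: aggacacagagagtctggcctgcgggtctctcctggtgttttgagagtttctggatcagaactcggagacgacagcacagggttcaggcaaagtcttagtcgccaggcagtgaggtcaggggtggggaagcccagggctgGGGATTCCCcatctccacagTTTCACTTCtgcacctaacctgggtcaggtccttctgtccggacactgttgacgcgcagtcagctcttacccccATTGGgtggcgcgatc
H2-D1: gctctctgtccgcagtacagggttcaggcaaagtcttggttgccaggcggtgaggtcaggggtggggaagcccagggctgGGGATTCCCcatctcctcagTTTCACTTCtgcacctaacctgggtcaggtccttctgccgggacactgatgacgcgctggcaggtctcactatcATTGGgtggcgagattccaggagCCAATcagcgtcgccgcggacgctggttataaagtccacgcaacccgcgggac
B2m: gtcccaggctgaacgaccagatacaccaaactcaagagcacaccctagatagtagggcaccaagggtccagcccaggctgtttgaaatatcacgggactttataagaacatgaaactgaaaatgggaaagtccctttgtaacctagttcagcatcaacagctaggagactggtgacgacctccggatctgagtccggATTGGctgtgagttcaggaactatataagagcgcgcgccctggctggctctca
Tapbp: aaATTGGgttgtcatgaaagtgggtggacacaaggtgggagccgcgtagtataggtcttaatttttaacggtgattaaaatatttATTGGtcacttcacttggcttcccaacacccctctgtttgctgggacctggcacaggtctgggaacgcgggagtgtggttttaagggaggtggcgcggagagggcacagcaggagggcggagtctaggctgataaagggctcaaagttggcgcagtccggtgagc
Psmb8: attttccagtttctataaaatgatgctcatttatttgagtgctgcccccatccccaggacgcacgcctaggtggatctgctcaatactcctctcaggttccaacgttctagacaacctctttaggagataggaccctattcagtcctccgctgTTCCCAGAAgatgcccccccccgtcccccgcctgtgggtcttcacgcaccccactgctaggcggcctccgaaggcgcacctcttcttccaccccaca

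Both heavy chain genes carried the kappa B letters and, 11 bases further toward the start, the interferon response core. Of 32851 promoter windows in the RefSeq table, 0.301% held the kappa B letters and 6.31% the interferon response core. These shares are for the exact letters given, not for all forms of such elements. The windows of H2-K1 and H2-D1 are nearly alike around these motifs, so their matches are not independent of each other. The CCAAT letters stood in H2-K1, H2-D1, B2m and Tapbp, as in 33.8% of all windows, and also in Tap1 and Psmb9. The Psmb8 window held the gamma-activated site as TTCCCAGAA, a motif matched in 7.02% of all windows, and the Cd274 window held none of the 4. These are matches of letters in a reference of another strain, not sites of binding. Only the patterns given were searched, so a window without a match cannot be said to lack such an element. The B2m window, for one, holds gaaactgaaa, which resembles the interferon core searched but is spaced differently. It also holds gggaaagtccc, which resembles the kappa B letters without matching them. Both stretches are left unmarked.

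The genes lie in 4 places of the genome (GRCm39, GENCODE M39). Tapbp (chr17:34134873-34148267), H2-K1 (chr17:34214987-34219321), Psmb9 (chr17:34400960-34406738), Tap1 (chr17:34405996-34416199), Psmb8 (chr17:34416690-34420428), Tap2 (chr17:34422501-34435829) and H2-D1 (chr17:35481691-35486475) share the MHC on chromosome 17. B2m is at chr2:121977957-121983594, Nlrc5 at chr8:95160984-95253900 and Cd274 at chr19:29344529-29365495. Reads were counted over whole genes, introns included, and annotated exons covered from 9.14% of the span of Nlrc5 to 91.3% of that of Psmb8.

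The sources differ on what the 3 columns of a condition are. The labels number them as replicates and the study's statistics section speaks of independent biological replicates, whereas the sequencing report among its supplements lists them as subsets of the reads of 1 sample per condition. The counts of such a trio of columns varied less than sampling noise alone would give (chi-square per degree of freedom 0.0951 to 0.475), so their mean was counted as 1 sample, called a library here. Total counts were 25613778 to 26956442 per library. A difference between 2 conditions therefore has no replicate check, and the 95% intervals given below cover counting error only. They are exact Poisson intervals for levels, which decide whether neighbours overlap, and normal intervals from both counts for log2 fold changes. Overlap of 2 level intervals does not show that the levels are equal. Levels are CPM (the count times 1e+06 over the library total) scaled by the trimmed mean of M values (TMM). The BLA-A library stood apart in composition, with a TMM factor of 0.905 against 1.01 to 1.03 in the other four, and scaling by total counts alone moved the median of all genes in it from -0.01 to -0.18 on the log2 scale. The labels also give each sample a date of its own as batch, so date and condition cannot be told apart. Of 8 epithelial markers, 6 were expressed, Krt18 at 451 to 689 CPM in the 5 libraries, and Krt5 was at 0 in all. These markers moved in both directions in BLA-A, where the class I chains were highest. Krt19 was at 11.5 CPM in untreated and 45.0 CPM in BLA-A cells, Cdh1 at 124 and 232 CPM and Krt8 at 275 and 434 CPM, while Epcam was at 68.9 and 39.7 CPM. Summed over 10 leukocyte markers the level was 14.0 CPM in untreated cells and 11.6, 10.8, 12.3 and 21.7 CPM in BLU, BLA, BLU-A and BLA-A, with Lyz2 at 0 in all 5 libraries and Ptprc, the pan-leukocyte gene CD45, at most at 1.501 CPM. Most of that sum was Cd14, at 8.52 CPM in untreated and 20.4 CPM in BLA-A cells. The other 3 leukocyte markers that passed the filter were lower in BLA-A than in untreated cells, Ptprc at 0.302 against 1.501 CPM, Adgre1 at 0.216 against 2.14 CPM and Csf1r at 0.302 against 0.825 CPM. The 6 fibroblast markers summed to 87.2 to 103.6 CPM, nearly all of it Pdgfra at 86.0 to 102.2 CPM with Lum at 0, and the 5 endothelial markers to 3.93 to 8.82 CPM. Of the latter, Tek was at 4.32 CPM in untreated and 1.16 CPM in BLA-A cells, Vwf had 43 counts in untreated and 0 in BLA cells, and Kdr had 21 counts in untreated and 0 in both BLA and BLU-A cells. Their part in the results was not tested. Of the hormone receptor genes, Pgr was at or under 1.32 CPM, whereas Esr1 was read at 21.1 to 35.3 CPM in this model of triple-negative cancer. The Esr1 level includes intron reads and was not divided by gene span, so it does not show that the receptor is made.

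**Figure D1:**
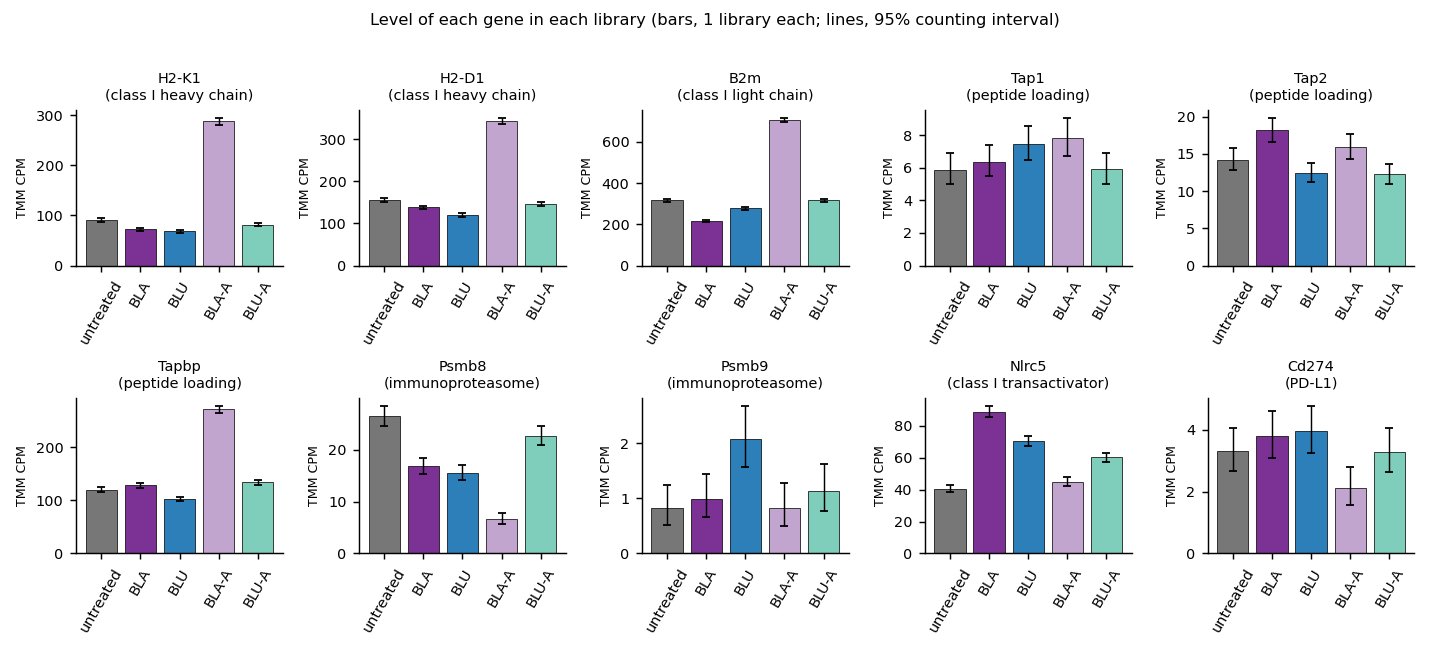
Level of each of the 10 genes in each of the 5 libraries, in TMM CPM on axes that start at 0 and differ between panels, with bars for single libraries and lines for the 95% counting interval. BLA-A stands highest for H2-K1, H2-D1, B2m and Tapbp and lowest for Psmb8, while Nlrc5 is highest in BLA.

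The antigen presentation genes of untreated 4T1 cells spanned a wide range, from an abundant light chain to a nearly silent Psmb9. Per kilobase of gene span, so that genes can be compared, B2m was at 56.1 CPM, H2-D1 at 32.4, H2-K1 at 21.0, Tapbp at 8.96 and Psmb8 at 7.07. The transporter genes were far below, with Tap2 at 1.07 and Tap1 at 0.577 per kilobase of span. Nlrc5 was at 0.439, Cd274 at 0.157 and Psmb9 at 0.143 per kilobase of span. These per-span levels count intronic reads, so a long gene such as Nlrc5 is set lower by its introns than a per-exon level would be.

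The class I heavy chains were higher in BLA-A than in any other library, and at or below the untreated level in the other 3 treatments. H2-K1 was at 90.9 CPM in untreated cells, 68.2 in BLU, 72.3 in BLA, 81.8 in BLU-A and 288 in BLA-A. Its BLA-A level was 3.16-fold the untreated one (log2 fold change 1.66, counting interval 1.59 to 1.72), while the log2 fold change was -0.41 in BLU, -0.33 in BLA and -0.15 in BLU-A. H2-D1 was at 155 CPM in untreated cells, 119 in BLU, 138 in BLA, 146 in BLU-A and 343 in BLA-A. It was 2.21-fold the untreated level in BLA-A (log2 fold change 1.14, 1.09 to 1.20). Its log2 fold change was -0.38 in BLU (-0.44 to -0.31), -0.17 in BLA (-0.23 to -0.11) and -0.08 in BLU-A (-0.15 to -0.02). The level interval of BLU-A overlapped those of untreated and BLA cells, which did not overlap each other. Both genes had the same order of conditions from the highest to the lowest. Gm53999 overlaps 31.4% of the span of H2-K1 on the opposite strand, with 929 counts in BLA-A and 245 in untreated cells. Reads of the pair could be split. In bulk RNA, fewer cells that express a gene and less RNA per cell cannot be told apart. 4T1 carries the d haplotype of the BALB/c MHC, whereas the reads were aligned to the b haplotype of C57BL/6J and poorly placed reads were dropped, so the amounts of both heavy chains are uncertain.

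B2m, the light chain shared by the class I molecules, was also highest in BLA-A. It was at 316 CPM in untreated cells, 277 in BLU, 216 in BLA, 317 in BLU-A and 706 in BLA-A. The BLA-A level was 2.23-fold the untreated one (log2 fold change 1.16, 1.12 to 1.19), BLA was the lowest library (log2 fold change -0.55, -0.60 to -0.50), and BLU-A and untreated cells overlapped. Patl2, annotated on the opposite strand across 100% of the span of B2m, had 8649 counts against 8432 of B2m in untreated cells and 16768 against 16360 in BLA-A. In the 5 libraries Patl2 stood at 102 to 103% of the count of B2m although the counting is stated to use strand, so reads of these 2 genes cannot be told apart here.

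Tapbp, like the chains its product binds, was highest in BLA-A, whereas no treatment took a transporter gene past a log2 fold change of 1. Tapbp was at 120.0 CPM in untreated cells, 103 in BLU, 128 in BLA, 134 in BLU-A and 271 in BLA-A. It was 2.25-fold higher in BLA-A than in untreated cells (log2 fold change 1.17, 1.11 to 1.23) and within 0.22 of untreated on the log2 scale in the other three. Tap1 was at 5.89 CPM in untreated cells, 7.47 in BLU, 6.39 in BLA, 5.92 in BLU-A and 7.85 in BLA-A, and every pair of neighbours in the order of levels overlapped. Against untreated cells its log2 fold change was nonetheless beyond the counting interval in BLA-A (0.39, 0.08 to 0.69) and BLU (0.32, 0.02 to 0.62). Tap2 was at 14.2 CPM in untreated cells, 12.4 in BLU, 18.2 in BLA, 12.3 in BLU-A and 16.0 in BLA-A. Its largest log2 fold change was 0.34 (0.15 to 0.54), in BLA. Zbtb22 overlaps 25.5% of the span of Tapbp on the same strand, and it too was highest in BLA-A, at 942 counts against 446 in untreated cells. Gm19412, over 9.2% of that span on the opposite strand, had 1260 counts in BLA-A and 441 in untreated cells.

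Psmb8, the catalytic immunoproteasome subunit that takes the place of Psmb5, went the other way. It was at 26.5 CPM in untreated cells, 15.6 in BLU, 16.9 in BLA, 22.7 in BLU-A and 6.69 in BLA-A. The untreated library was thus the highest and BLA-A the lowest of the 5, at 0.267 of the untreated level (log2 fold change -1.91, -2.16 to -1.66). The level intervals of untreated and BLU-A cells overlapped, at a log2 fold change of -0.22 (-0.37 to -0.06). Psmb9, which takes the place of Psmb6, was read by 22, 57, 27, 30 and 19 counts in untreated, BLU, BLA, BLU-A and BLA-A cells, or 0.825, 2.07, 0.991, 1.13 and 0.820 CPM. It passed the filter on low counts with a highest value of 2.12 CPM before TMM scaling. BLU was the highest library (log2 fold change 0.95, 0.24 to 1.66), and all neighbours in the order overlapped. Psmb9 shares 743 bases with Tap1 on the opposite strand, where reads of the pair could be split.

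**Figure D2:**
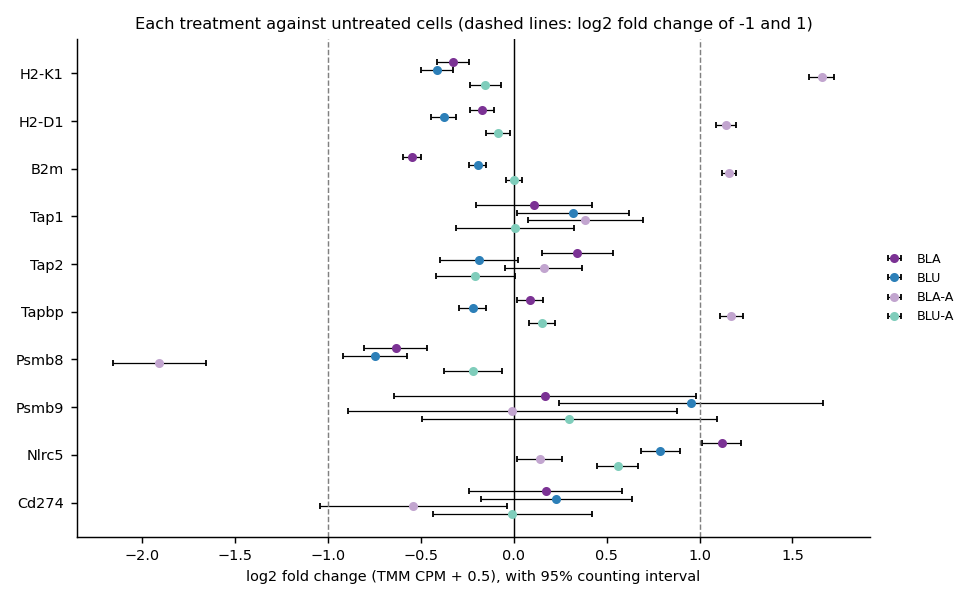
Log2 fold change of each gene in each treatment against untreated cells on TMM CPM plus 0.5, points for single libraries and lines for the 95% counting interval, with dashed lines at -1 and 1. In BLA-A 4 genes lie beyond 1 and Psmb8 beyond -1, and Nlrc5 lies beyond 1 in BLA.

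Nlrc5, which switches on class I genes at their promoters, was highest in the 2 extract libraries, where both heavy chains and B2m were lowest. It was at 40.7 CPM in untreated cells, 70.8 in BLU, 89.1 in BLA, 60.3 in BLU-A and 45.0 in BLA-A. Against untreated cells it was 2.17-fold higher in BLA (log2 fold change 1.12, 1.02 to 1.22), 1.73-fold in BLU and 1.47-fold in BLU-A. BLA-A and untreated cells were neighbours with overlapping intervals, at a log2 fold change of 0.14 that turned to -0.05 under scaling by total counts. Nlrc5 is the only member with a span of 30 to 100 kb, a class in which the median of 4999 genes was 0.05 in BLA and 0.07 in BLU.

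Cd274 was low in every library. It was at 3.30 CPM in untreated cells, 3.96 in BLU, 3.78 in BLA, 3.28 in BLU-A and 2.11 in BLA-A, which are 88, 109, 103, 87 and 49 counts. BLA-A was the lowest library (log2 fold change -0.54, -1.04 to -0.04), and the level intervals of all neighbours in the order overlapped. The difference between BLA-A and its neighbour BLU-A was nonetheless beyond its own counting interval (-0.53, -1.04 to -0.03). The other 3 treatments lay from -0.01 to 0.23. Of 8 neighbours on chromosome 19 that passed the filter 2 were past a log2 fold change of -1 in BLA-A. These were Rcl1 at -1.65 and Plgrkt at -1.13, and Jak2, the kinase of interferon receptors, was at -0.88. Ermp1 at 0.72 and Ric1 at 0.35, named after their values were seen, went the other way. The median of the 8 neighbours was -0.56 in BLA-A, beside a median of -0.01 over all genes there. In BLU, BLA and BLU-A it was -0.18, -0.10 and -0.01. Plgrkt overlaps 296 bases of Cd274 on the opposite strand.

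Read against all 17647 genes that passed the filter, the members past a log2 fold change of 1 numbered as follows. In BLA-A 4 of 10 were higher (H2-K1, H2-D1, B2m and Tapbp) and 1 lower (Psmb8), where 8.54% of all genes were past the threshold upward and 12.4% downward. In BLA 1 of 10 was higher (Nlrc5) and 0 lower, beside 7.92% and 8.54% of all genes. In BLU and BLU-A no member was past the threshold in either direction, beside 5.66% higher and 4.64% lower of all genes in BLU and 3.35% higher and 4.5% lower in BLU-A. The median of the 10 members was -0.19 in BLU, 0.10 in BLA, -0.002 in BLU-A and 0.27 in BLA-A, beside medians of all genes from -0.01 to 0.001. With total-count scaling 2 members were past the threshold in BLA-A, H2-K1 and Psmb8, and H2-D1, B2m and Tapbp came to 0.95, 0.96 and 0.98. With a pseudocount of 0.1 CPM Psmb9 came to 1.23 in BLU, the only member past the threshold there.

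**Figure D3:**
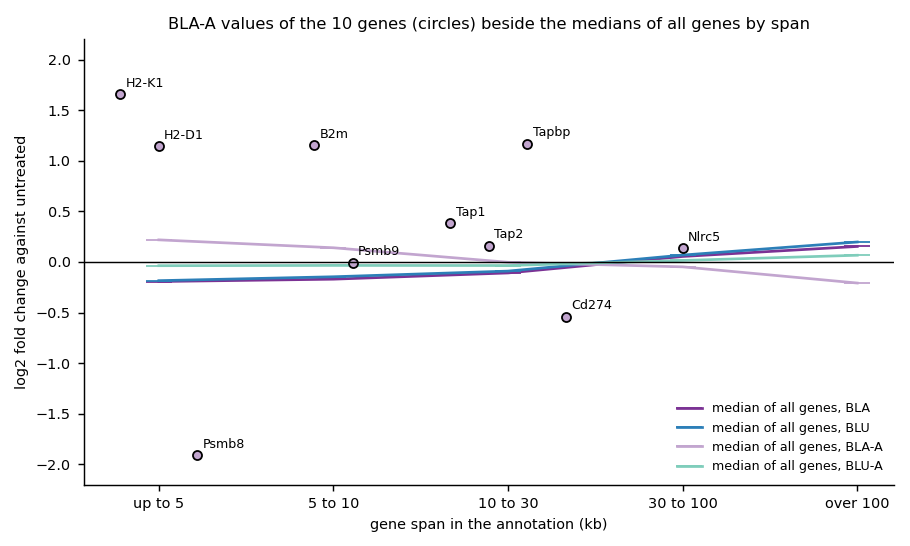
Log2 fold change against untreated cells by gene span, with circles for the 10 genes in BLA-A (placed side by side within their span class) and lines joining the medians of all genes of each class in the 4 treatments. The BLA-A medians go from 0.22 for genes up to 5 kb to -0.21 for genes over 100 kb, while Psmb8 and H2-K1, both of the shortest class, lie at -1.91 and 1.66.

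Gene span moved with the values in BLA-A. Among 1666 genes of up to 5 kb the median log2 fold change was 0.22 in BLA-A and -0.19 in BLA, and among 2633 genes over 100 kb it was -0.21 and 0.15. H2-K1, H2-D1 and Psmb8 belong to the shortest class and stood 1.44, 0.92 and -2.13 from its median in BLA-A. B2m stood 1.02 above the median of its class of 5 to 10 kb, and Tapbp 1.17 above and Cd274 0.54 below that of 10 to 30 kb. A span could be matched for 92.6% of the genes tested, and its part in the results was not tested further.

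The log2 difference between a nanoparticle and its extract was larger in size for blackberry than for blueberry in every member but Tap1 and Psmb9, a contrast that was not tested. Tap1 was at 0.28 (-0.02 to 0.58) for blackberry and -0.31 (-0.61 to -0.01) for blueberry, and Psmb9 at -0.18 (-1.02 to 0.67) and -0.65 (-1.29 to -0.02). Between BLA-A and BLA, H2-K1 was 3.96-fold, B2m 3.26-fold, H2-D1 2.48-fold and Tapbp 2.12-fold higher, and Psmb8 was lower at 0.414 of the BLA level. These are 4 members higher and 1 lower past the threshold, beside 11.5% and 12.9% of all genes. With total-count scaling Tapbp came to 0.92 and Nlrc5 to -1.14 in that comparison. Between BLU-A and BLU the same 4 genes had log2 fold changes of 0.20 to 0.37, and 0 members were past the threshold in either direction, beside 2.87% and 3.89% of all genes. Psmb8 was 1.44-fold higher in BLU-A than in BLU (log2 fold change 0.53, 0.35 to 0.71) and lower in BLA-A than in BLA (-1.27, -1.53 to -1.01). Nlrc5 was lower in both nanoparticle libraries than in the extract of the same berry, at -0.98 (-1.08 to -0.87) for blackberry and -0.23 (-0.33 to -0.14) for blueberry. Cd274 was at -0.71 (-1.20 to -0.22) for blackberry and -0.24 (-0.64 to 0.17) for blueberry. In BLA against BLU, H2-K1 was at 0.08 (-0.01 to 0.18) and H2-D1 at 0.21 (0.14 to 0.27), B2m was at -0.35 (-0.40 to -0.31) and Tap2 at 0.53 (0.33 to 0.73).

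**Figure D4:**
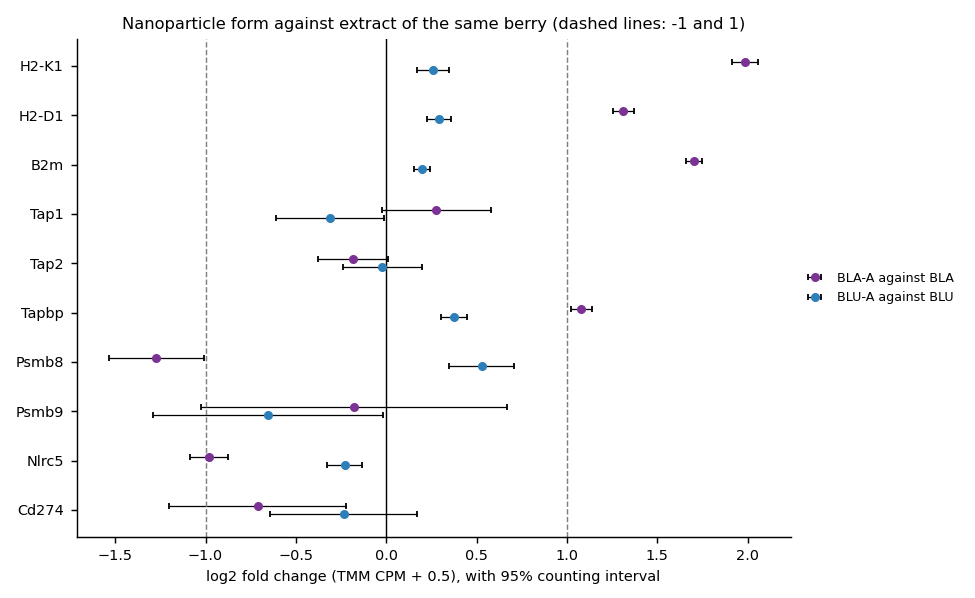
Log2 fold change of each gene in the nanoparticle library against the extract library of the same berry, points for single comparisons and lines for the 95% counting interval, with dashed lines at -1 and 1. H2-K1, H2-D1, B2m and Tapbp lie beyond 1 for blackberry and between 0.20 and 0.37 for blueberry, and Psmb8 lies at -1.27 and 0.53.

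No member passed the tests across treatments. For the 4 treated libraries together against the untreated library, which has no replicate, 0 of 10 members were called (quasi-likelihood test of edgeR, p-values adjusted by Benjamini-Hochberg) and the smallest adjusted p was 0.999, while 0.0227% of all genes were called. The spread in this test is that among different treatments, and 0 members had an unadjusted p under 0.05. For nanoparticles against extracts, with berry as a term and 1 residual degree of freedom, 0 members were called (adjusted p at least 0.740), beside 0.0283% of all genes. An unadjusted p under 0.05 was reached by 4 of 10 members, beside 1183 of 17647 genes. Those 4 were H2-K1 (log2 fold change 1.19, SE 0.394), B2m (1.01, SE 0.357), H2-D1 (0.86, SE 0.319) and Tapbp (0.79, SE 0.299), each higher in 2 of 2 nanoparticle libraries. For blackberry against blueberry 0 members were called (adjusted p at least 0.994), beside 0.0397% of all genes. Here 3 members had an unadjusted p under 0.05 (H2-K1, H2-D1 and Tapbp), beside 812 of 17647 genes. Without a filter on low counts 207 genes were called for nanoparticles against extracts by the same edgeR test, where 5 were called with it. Of these 1 was a member, H2-K1 (adjusted p = 0.0321). The DESeq2 Wald test also called 0 members in each of the 3 comparisons, and 9 of the 10 members had an adjusted p in the first of them.

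**Figure D5:**
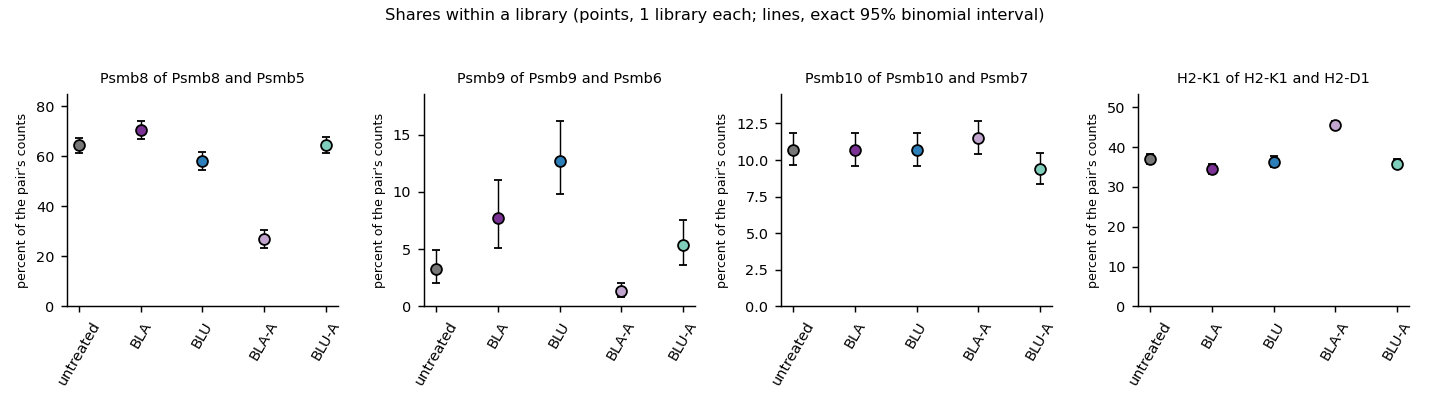
Share of 1 gene in the summed counts of a pair within each library, in percent, points for single libraries and lines for the exact 95% binomial interval, on axes that start at 0. Psmb8 makes up 26.8% of its pair in BLA-A and 58.2 to 70.5% elsewhere, and H2-K1 45.7% in BLA-A and 34.4 to 37.0% elsewhere.

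Shares within a library need no scaling between libraries, and they set the immunoproteasome subunits beside the constitutive ones they replace. Psmb8 made up 64.3% of the counts of Psmb8 and Psmb5 in untreated cells (exact binomial interval 61.4 to 67.2), 70.5% in BLA, 58.2% in BLU, 64.6% in BLU-A and 26.8% in BLA-A (23.2 to 30.6). The higher share in BLA came with lower counts of both genes, 459 against 705 in untreated cells for Psmb8 and 192 against 391 for Psmb5. Psmb9 made up 3.31% of its pair with Psmb6 in untreated cells (2.09 to 4.97), 12.7% in BLU (9.78 to 16.2) and 1.33% in BLA-A (0.802 to 2.07). Psmb6 itself was at 24.1 CPM in untreated and 60.9 CPM in BLA-A cells. Psmb10, the last of the immunoproteasome subunits, was 9.37 to 11.5% of Psmb10 and Psmb7 in the 5 libraries, with overlapping intervals. H2-K1 made up 37.0% of the 2 heavy chains in untreated cells (35.8 to 38.2) and 45.7% in BLA-A (44.9 to 46.5). The counts of H2-D1 stood to those of B2m at 0.490 in untreated cells and 0.486 in BLA-A, and at 0.636 in BLA.

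The rest of the class I pathway was followed through lists written for this description. Of 10 further loading and trimming genes, 1 was past the threshold in BLA-A and 0 in the other treatments, with a median of 0.45 in BLA-A and of -0.12, -0.02 and -0.04 in BLU, BLA and BLU-A. The one was Calr, the chaperone calreticulin of the loading complex, at 270.1 CPM in untreated cells, 193 in BLU, 215 in BLA, 235 in BLU-A and 1049 in BLA-A. Canx, the chaperone calnexin and the most read of the list, was at 673 CPM in untreated and 848 in BLA-A cells. Of 23 other class I heavy chain genes listed, 17 were matched in the table and 14 passed the filter, of which 3 were past 1 in BLA-A and 1 past -1. H2-Q10 was at 3.45 CPM in untreated and 11.3 in BLA-A cells, and H2-T23, which encodes Qa-1, a ligand of an inhibitory NK receptor, at 5.74 and 17.1 CPM. The third was H2-T24 (2.63 and 6.21 CPM), named after its values were seen, and H2-Q2 was lower, at 3.64 and 1.55 CPM. H2-Q2 was lowest in BLA, at 0.771 CPM, and Fcgrt, the neonatal Fc receptor chain, had 10 counts in untreated and 60 in BLA cells. H2-Q4, the most read of these genes, was at 36.7 CPM in untreated and 61.2 in BLA-A cells. The H2 genes are near copies of each other and reads may be split between them. Among 9 other proteasome genes 1 was past 1 in BLA-A, Psmb6 (log2 fold change 1.32), and 1 past -1 in BLA, Psmb5 (-1.01). The most read of them was Psme4, a proteasome activator, at 175 CPM in untreated and 199 CPM in BLA-A cells.

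Interferon ligand genes were nearly unread, and a part of interferon in the results was not tested. Of 9 interferon ligands 6 were at 0 counts in all 5 libraries, Ifng and Ifnb1 among them, and the most read was Ifnk, with 0 to 22 counts. Of 19 interferon receptor and signalling genes 0 were past the threshold in any treatment, with medians of -0.03, -0.04, 0.02 and -0.01 in BLU, BLA, BLU-A and BLA-A. Jak2 was the most read of them, at 359 CPM in untreated and 195 in BLA-A cells. Irf1, a transcription factor of the interferon response named after its values were seen, was at 32.2 CPM in untreated and 31.6 in BLA-A cells. Of 8 factors that bind MHC promoters together with Nlrc5 or its relative CIITA 2 were past -1 in BLA-A. Rfxap, a subunit of the RFX complex, was at 18.3 CPM in untreated and 7.38 in BLA-A cells, and Nfyb, a subunit of the CCAAT-binding factor, at 56.7 and 19.7 CPM. Creb1, the most read of the 8, was at 109.5 and 129 CPM. Of 17 interferon-stimulated genes that passed the filter 2 were past 1 and 1 past -1 in BLA-A, with a median of -0.28. In BLA 2 were past 1, in BLU 1 and in BLU-A 1, with medians of 0.11, -0.06 and 0.08. Cxcl10, a chemokine for T cells, was at 2.18 CPM in untreated and 10.1 CPM in BLA-A cells. Bst2, which tethers virions, was at 1.69 and 7.25 CPM, and Usp18, which removes ISG15, at 4.43 and 1.16 CPM. Zbp1, a sensor of nucleic acids, was at 0.525 CPM in untreated and 2.79 in BLA cells, and Parp14 was the most read, at 51.9 CPM in untreated and 32.5 in BLA-A cells.

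Other checkpoint ligand genes went both ways in BLA-A. Of 11 that passed the filter 2 were past 1 in BLA-A and 1 past -1. Cd276, which encodes B7-H3, was at 42.0 CPM in untreated cells, 38.3 in BLU, 41.2 in BLA, 45.4 in BLU-A and 123 in BLA-A. Nectin2, a ligand of the receptors TIGIT and PVRIG, was at 27.3, 21.8, 27.1, 26.3 and 81.3 CPM in the same order. Cd47, the signal against phagocytosis and the most read of the list, was at 501 CPM in untreated and 303 in BLA-A cells. Cd86 had 33 counts in untreated cells and 0, 0, 9 and 1 in BLU, BLA, BLU-A and BLA-A, and Vtcn1 had 7 in untreated and 36 in BLU cells. None of 8 genes of PD-L1 protein turnover was past the threshold in any treatment, and the most read, Cul3, was at 232 CPM in untreated and 302 in BLA-A cells. Of 6 NK receptor ligand genes that passed the filter, 2 were past -1 in BLA and 1 in each other treatment, and Ulbp1 was the most read (68.3 CPM in untreated and 50.0 in BLA-A cells). Raet1e was at 3.30 CPM in untreated and 0.808 in BLA cells, and Cd48 had 34 counts in untreated cells and at most 9 in any treatment. Of 3 class II genes that passed the filter Cd74, the invariant chain, was past 1 in BLA and BLA-A, at 1.61 CPM in untreated, 4.59 in BLA and 6.43 in BLA-A cells, and H2-DMa was the most read, at 24.7 CPM in untreated and 41.1 in BLA cells. For treated against untreated cells, 0 genes of any of these lists were called (smallest adjusted p 0.999, edgeR quasi-likelihood test).

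The genes closest in pattern to 4 members were found among 9764 or 9765 genes of at least 10 CPM on average, by the root mean square distance of centred log2 levels over the 5 libraries. Closest to B2m were Patl2, at a distance of 0.00397, Gm26787 and Bckdk. Patl2 covers B2m on the opposite strand and their reads cannot be told apart, so its rank is not a separate result. Among the closest to Psmb8 were Surf2 (0.0894) and Trpm4, which were at 98.5 and 539 CPM in untreated and 29.3 and 164 CPM in BLA-A cells. Nearest to Nlrc5 were Stx8 (0.0255), Agap1 and Gm52306, and nearest to Cd274 were Mtfmt (0.0254), Dync1li2 and Tia1. Among the members themselves the closest pair was H2-D1 and Tapbp, at 0.106, and the most distant was H2-K1 and Psmb8, at 1.36.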

How the data were processed

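RNA-seq of 4T1 cells in 5 conditions was re-analysed. The authors deposited raw counts per gene in 15 columns, 3 per condition, and named DESeq2 1.36.0 and GRCm39 in their processing notes. Per their methods, ribosomal reads were removed, reads were aligned to RefSeq GRCm39 with STAR, and reads on features of type gene were counted in OmicsBox by strand, leaving out low mapping quality. The sources differ on whether the 3 columns of a condition are replicates or subsets of the reads of 1 sample. They differed by less than sampling noise and were counted as 1 library. The numbers 1 to 3 of the labels pair no samples (mean correlation of same-numbered columns -0.000893 over 30 pairs). Deposited tables of the authors' own fold changes, p-values and GO enrichment scores were not used.

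The rounded mean of the 3 columns was used as 1 library. A gene was kept when any library reached 1 CPM (17647 of 40402). TMM factors and the quasi-likelihood test came from edgeR 4.0.16, with Benjamini-Hochberg adjustment over all genes kept and a threshold of 0.05. Log2 fold changes were taken on TMM CPM plus 0.5, with a threshold of 1. The plus 0.5 understates the change of low genes. DESeq2 1.42.0 was an alternative. The common coefficient of variation was 0.452 among treated libraries and 0.383 in the 2 by 2 layout of berry and form. A floor of 3 counts was 0.109 to 0.129 CPM. R 4.3.3, Python 3.11.15, pandas 2.3.3, scipy 1.17.1 and matplotlib 3.10.9 were used, and the tests were tested on simulated data.

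The members and lists were chosen with earlier results of these data known. The 10 members are named in full. From each list, the genes kept that passed a log2 fold change of 1 in at least 1 treatment are named, the largest first and at most 4, and the gene of the highest mean CPM. For 4 members the 3 genes nearest in pattern are named, except a gene near Psmb8 that is not reported here. H2-T24, Irf1, Ermp1 and Ric1 are outside this rule. Alternatives covered scaling, pseudocount, filter, test, columns and libraries left out.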

Additional observations from a re-analysis of the deposited data

Results flagged for a closer look

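H2-K1 in BLA-A stood far from the other 3 treated libraries. Its gap to the next library, BLU-A, was 0.938 of the whole range of the 4 treated libraries, above the limit of Dixon's test for 4 values. H2-D1 in BLA-A stood apart in the same way, with a gap of 0.879 of the range. The 4 libraries are 4 different treatments, and chance flags about 1 in 20 groups among the 10 members looked at. B2m and Tapbp, highest in the same library, were under that limit.

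Psmb8 differed between nanoparticle and extract in opposite directions for the 2 berries. Its log2 fold change was -1.27 in BLA-A against BLA and 0.53 in BLU-A against BLU, both beyond the counting interval. With 1 library a condition this difference was not tested. Psmb8 was the only 1 of the 10 members with opposite differences that both lay beyond counting error.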

How the results depend on the processing

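The count of genes called moved by over 1.5 times under several settings. The DESeq2 Wald test called 19 genes for treated against untreated, 22 for nanoparticles against extracts and 12 for blackberry against blueberry, where edgeR called 4, 5 and 7. Without a filter on low counts, edgeR called 207 genes for nanoparticles against extracts, 1 of them a member (H2-K1), and 107 for blackberry against blueberry. Leaving out each of the 3 columns in turn gave 3 to 5 genes for nanoparticles against extracts. Leaving out each treated library in turn gave 3 to 34 genes for treated against untreated, with 34 without BLA-A and 0 members in each. With the 15 columns taken as separate samples, 3553 genes and 1 member, Nlrc5 (adjusted p = 0.0337), were called, and with the replicate number as a replicate block 2498 genes and 0 members (Nlrc5, adjusted p = 0.0629). The columns of a condition differ by less than sampling noise, so neither fit measures a spread between replicates. Members past a log2 fold change of 1 numbered 2 in BLA-A under total-count scaling, against 5, and 1 in BLU with a pseudocount of 0.1 CPM, against 0. Other counts of members past the threshold were within 1.5 times. Of the log2 fold changes of members, 10 of 60 moved beyond their counting interval under total-count scaling, 7 under DESeq2 size factors and 8 without the filter, and 0 under the other settings. No value past the threshold changed sign under any setting run. The cause of these changes was not tested. Depth limits Psmb9 and Cd274 most, with 19 to 57 and 49 to 109 counts.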
